A study of Mus musculus with 2 samples.

Results

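The fatty acid oxidation genes examined here are 32 mouse genes of the mitochondrial and peroxisomal pathways, chosen as a functional list: 19 genes of the mitochondrial pathway, 8 of the peroxisomal pathway, 4 acyl-CoA synthetases that activate fatty acids, and the transcription factor gene Ppara. They were found on the array through the RefSeq accession of each probe, which gave 41 probes for all 32 genes, out of 20618 genes with a named probe. The samples were leukaemic cells (B-cell acute lymphoblastic leukaemia, B-ALL) from the bone marrow of C57BL mice of 8 weeks, sorted into a SoNar-high and a SoNar-low population by the ratio of fluorescence excited at 2 wavelengths. SoNar is a genetically encoded sensor whose ratio follows the NADH to NAD+ balance of the cytosol. Each group had 1 array of total RNA, a 1-colour (Cy3) Agilent mouse array. The sample titles name the groups N-myc-high and N-myc-low, and the labels do not explain these names, nor whether a sample came from 1 mouse or from several.

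Fatty acids are activated by acyl-CoA synthetases and enter mitochondria as carnitine esters. Inside, acyl-CoA dehydrogenases, hydratases, 3-hydroxyacyl-CoA dehydrogenases and thiolases shorten them in repeated cycles, and the electrons pass to NAD+ and, through the electron transfer flavoprotein, to the respiratory chain. Peroxisomes run a parallel cycle that starts with acyl-CoA oxidases and shortens very long and branched chains, and the nuclear receptor PPARalpha, encoded by Ppara, is known from liver as an activator of many genes of both pathways.

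The promoters of 4 members are shown, picked by their values in these data. Acad10 and Ppara were the only members detected in both samples with a difference of at least 2-fold. Hadha and Hadhb, which encode the subunits of 1 enzyme and lie head to head, were on opposite sides of the median gene. Decr1 and Acaa1a lay further from the median gene than Hadha or Hadhb. The sequences are from RefSeq (GRCm38.p6) and run from 250 bases before to 50 bases after the gene start, 5′ to 3′ on the gene's strand. For Acad10 (chr5:121660461-121660760, minus strand) and Ppara (chr15:85735526-85735825, plus strand), capitals mark matches to the motif of NRF1, a factor of genes for mitochondrial proteins. For Hadha (chr5:30154931-30155230, minus strand) and Hadhb (chr5:30155003-30155302, plus strand), capitals mark the 228 bases that the windows share, read on opposite strands.
Acad10: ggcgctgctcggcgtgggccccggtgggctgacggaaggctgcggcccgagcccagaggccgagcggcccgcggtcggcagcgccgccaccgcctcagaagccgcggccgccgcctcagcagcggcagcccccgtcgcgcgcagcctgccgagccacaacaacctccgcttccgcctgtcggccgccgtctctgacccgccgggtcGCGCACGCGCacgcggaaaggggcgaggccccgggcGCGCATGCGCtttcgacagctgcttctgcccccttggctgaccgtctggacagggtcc
Ppara: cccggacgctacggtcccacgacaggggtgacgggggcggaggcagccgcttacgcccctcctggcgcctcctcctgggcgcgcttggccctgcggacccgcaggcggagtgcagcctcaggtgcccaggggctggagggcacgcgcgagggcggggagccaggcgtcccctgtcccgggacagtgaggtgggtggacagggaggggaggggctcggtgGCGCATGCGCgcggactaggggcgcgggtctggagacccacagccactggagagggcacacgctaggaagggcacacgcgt
Hadha: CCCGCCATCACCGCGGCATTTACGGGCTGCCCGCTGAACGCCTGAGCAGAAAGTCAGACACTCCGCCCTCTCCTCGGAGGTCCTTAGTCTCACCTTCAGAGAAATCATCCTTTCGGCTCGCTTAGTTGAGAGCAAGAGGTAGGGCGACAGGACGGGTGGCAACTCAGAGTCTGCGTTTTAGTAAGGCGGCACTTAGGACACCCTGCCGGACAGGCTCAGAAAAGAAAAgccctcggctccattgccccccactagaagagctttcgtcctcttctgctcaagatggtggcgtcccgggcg
Hadhb: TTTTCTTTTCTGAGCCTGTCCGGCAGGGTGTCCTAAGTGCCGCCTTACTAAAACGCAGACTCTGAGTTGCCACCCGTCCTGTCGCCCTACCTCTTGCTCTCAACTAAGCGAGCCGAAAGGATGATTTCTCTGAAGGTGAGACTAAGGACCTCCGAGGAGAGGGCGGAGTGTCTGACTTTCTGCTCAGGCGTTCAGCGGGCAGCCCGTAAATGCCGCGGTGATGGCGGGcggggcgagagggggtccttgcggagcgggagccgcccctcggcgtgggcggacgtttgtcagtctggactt

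Signal well above background was found for 72.9% of gene spots in SoNar-high, against 44.8% in SoNar-low, and saturation for none. The arrays were scanned in different sessions, so the scan and the group cannot be told apart. With 1 array per group no test was possible, and every difference below is a value for these arrays, with no replicate check and with a precision limited by their number. Differences are log2 of the processed signal after scaling each array to its 75th percentile, SoNar-high minus SoNar-low. They were computed for genes with a probe well above background on both arrays. Of B lineage markers 10 of 13 were measured on both arrays, among them Cd79b. Igll1, Rag1 and Rag2, which mark early B cell stages, were undetected (no probe well above background) in both samples. Vpreb1 and Dntt, which also mark early stages, were measured on both arrays. Vpreb1 had a signal of 128 in SoNar-high and 118 in SoNar-low, and Dntt 169 in SoNar-high and 182 in SoNar-low. All 11 neutrophil markers were measured on both arrays, and together they gave a signal of 25226 in SoNar-high and 18176 in SoNar-low. Of these markers 10 had a difference above that of the median gene, as did 5258 of all 10517 measured genes. S100a9 was only just among the 10, at -0.15 against -0.17, with signals of 8479 in SoNar-high and 8533 in SoNar-low. Of the 4 adipocyte markers 0 were measured on both arrays, with summed signals of 104 in SoNar-high and 71.6 in SoNar-low. Markers of T, natural killer and monocytic cells had median log2 differences of 1.49, 1.17 and 0.81, over 2 measured genes each. The 3 measured erythroid markers did not go 1 way: Hba-a1 was at 1.88, Ermap at 1.67 and Hemgn at -0.83, and the summed erythroid signal was 15374 in SoNar-high and 23135 in SoNar-low. The part of other cell types in the results below was not tested, and in such bulk samples fewer cells of a type and less RNA per cell cannot be told apart.

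As a list, the fatty acid oxidation genes had values around those of genes in general. Acad10 and Ppara lay above 99.0% and 97.6% of all measured genes, and 4.23% lay below Decr1, the lowest member. Of the 32 members 30 (93.8%) were measured on both arrays, against 51.0% of all genes with a named probe. Their median log2 difference was -0.22, and that of all 10517 measured genes was -0.17. At least 2-fold higher in SoNar-high were 2 of 30 members, against a background of 4.87% of all measured genes. At least 2-fold lower were 0 members, against 1.68%. With array median scaling the counts were 1 higher and 11 lower, against 1.32% and 31.4% of all genes. A log2 difference above 0 was found for 10 members, and 36.8% of all genes had one.

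**Figure D1:**
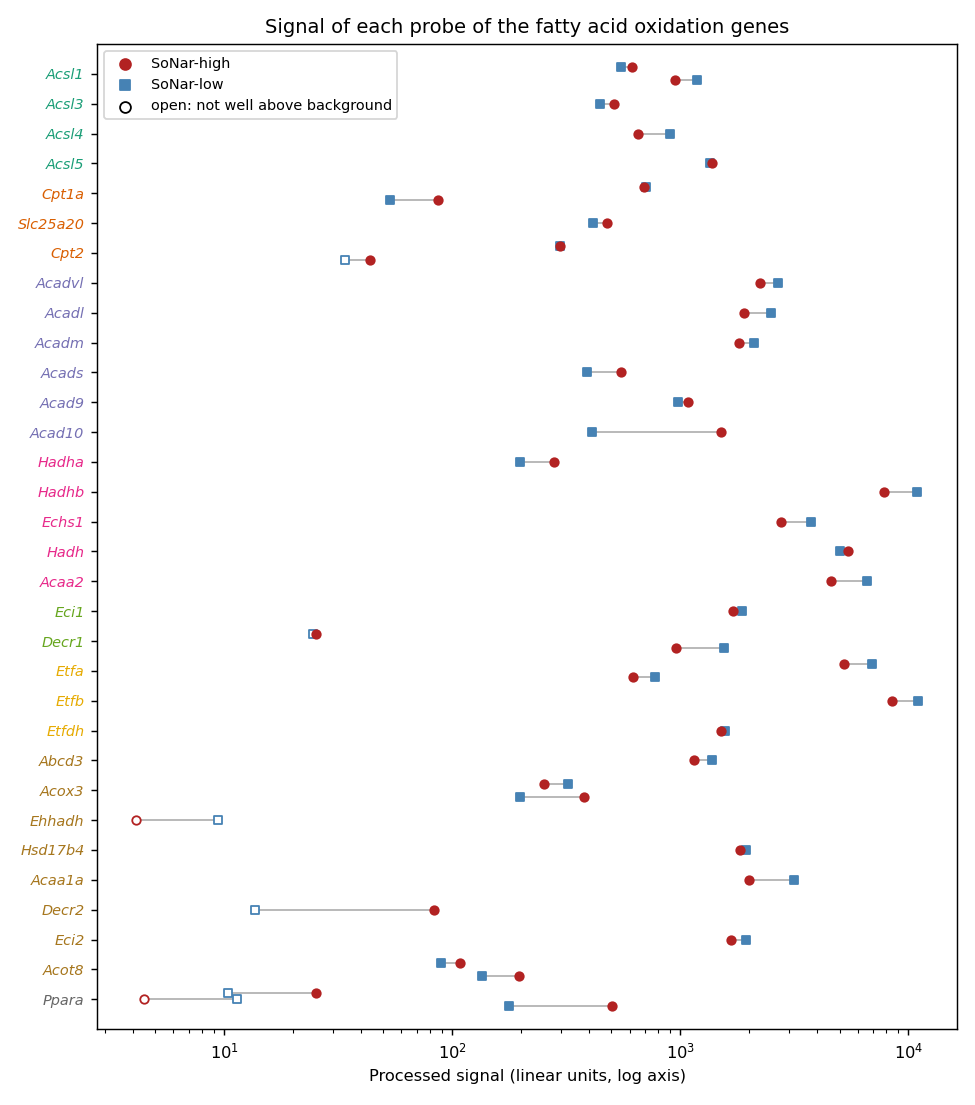
Processed signal (linear units on a log axis) of each of the 41 probes, with SoNar-high as circles and SoNar-low as squares joined by a line; open symbols are not well above background, and genes are coloured by role. Acad10 and the Ppara probe detected on both arrays have the SoNar-high circle far to the right of the SoNar-low square (1505 against 409 and 502 against 178), while most other pairs lie close together.

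The size of the measurement error can only be judged within the arrays. Over 193 probes printed several times, the log2 difference had a median SD of 0.15 between spots. Different probes of a gene were less alike: over 2021 genes with exactly 2 measured probes the median gap between their log2 differences was 0.43. Of the 30 members 21 lay nearer to the median of all genes than this gap, 5 lay further below it and 4 further above it. The share of all genes beyond this gap is not given here, so these counts do not set the members apart. The quartiles of all measured genes were -0.47 and 0.20, and 16 of the 30 members lay between them. For 25 members the value rests on a single probe.

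The 4 activating enzymes differed by less than 2-fold between the arrays in the main scaling, Acsl4 the most. Acyl-CoA synthetases join a fatty acid to coenzyme A, and the members differ in their preferred chains and membranes. Acsl1 has 2 probes, with signals of 617 and 948 in SoNar-high against 550 and 1192 in SoNar-low. These probes gave log2 differences of 0.02 and -0.48, and the gene mean was -0.23. Acsl4, which prefers arachidonic acid, had a signal of 653 in SoNar-high and 902 in SoNar-low. Its log2 difference of -0.61 was the lowest of the 4 synthetases and the only one further from the median of all genes than the usual gap between probes. Acsl3, with signals of 512 in SoNar-high and 445 in SoNar-low, had a difference of 0.06. Acsl5, with 1376 in SoNar-high and 1357 in SoNar-low, had one of -0.13.

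The carnitine shuttle, the entry step of the mitochondrial pathway, had 3 members between -0.14 and 0.18. Cpt1a encodes the malonyl-CoA-sensitive carnitine palmitoyltransferase of the outer membrane, the main control point of mitochondrial fatty acid oxidation in liver. Its probe with repeat spots had a processed signal of 692 ± 29.5 (SD over 9 spots) in SoNar-high and of 712 ± 30.6 (SD over 9 spots) in SoNar-low, and a log2 difference of -0.19 ± 0.07. Its second probe had 86.6 in SoNar-high and 53.6 in SoNar-low and a log2 difference of 0.55. The probes of Cpt1a therefore disagree in sign, and the gene mean of 0.18 averages over this. Slc25a20, the carnitine-acylcarnitine carrier of the inner membrane, had 478 in SoNar-high and 414 in SoNar-low, a log2 difference of 0.06. The detected probe of Cpt2, the inner palmitoyltransferase, had nearly equal signals of 298 in SoNar-high and 297 in SoNar-low, which after scaling is a log2 difference of -0.14. The other Cpt2 probe was detected in SoNar-high alone, with a signal of 43.6 there and 33.8 in SoNar-low.

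The acyl-CoA dehydrogenases held the highest value of the list. Acad10 encodes a member of this family whose substrates are less well defined than those of its relatives. Its probe had a processed signal of 1505 in SoNar-high and 409 in SoNar-low. This is a log2 difference of 1.73, or 3.33-fold higher in SoNar-high, and 99.0% of all measured genes had a lower value. The value rests on 1 spot of 1 probe. Under the 12 other settings it ran from 1.12 to 1.95. The classical dehydrogenases did not share this difference. Acadvl, for very long chains, had 2236 in SoNar-high and 2679 in SoNar-low and a log2 difference of -0.41. Acadl, for long chains, had 1900 in SoNar-high and 2500 in SoNar-low, a log2 difference of -0.54. Acadm, for medium chains and the enzyme lacking in the common human disorder of this pathway, had 1815 in SoNar-high and 2110 in SoNar-low, a log2 difference of -0.36. Acads, for short chains, was on the other side, with 552 in SoNar-high and 392 in SoNar-low and a log2 difference of 0.35. Acad9, which also serves the assembly of respiratory complex I, had 1085 in SoNar-high and 975 in SoNar-low and a log2 difference of 0.01.

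**Figure D2:**
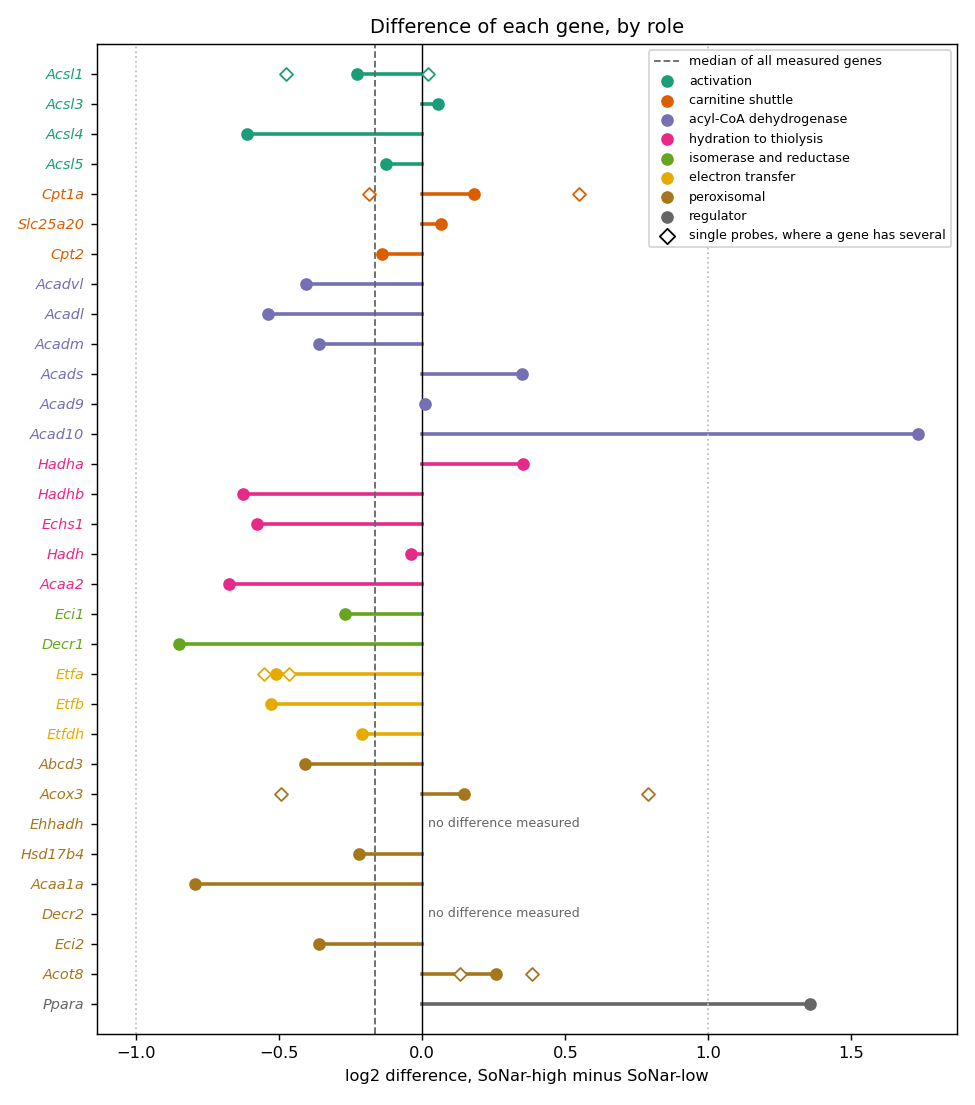
SoNar-high minus SoNar-low on the log2 scale for each gene as a filled point, coloured by role, with single probes as open diamonds where a gene has several; the dashed line is the median of all measured genes and the dotted lines mark 2-fold. Acad10 (1.73) and Ppara (1.35) pass the right dotted line, no gene passes the left one, and the probes of Acsl1, Cpt1a and Acox3 lie on both sides of 0.

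In the later steps of the mitochondrial cycle 3 of 5 values were below that of the median gene, as were 5258 of all 10517 measured genes. The median log2 difference over the 5 members that hydrate, dehydrogenate and cleave the chain was -0.58, against -0.17 for all measured genes. Set against the genes of its own signal decile, the median member of the 5 differed by -0.24. Hadhb, the thiolase subunit of the mitochondrial trifunctional protein, had a signal of 7801 in SoNar-high and 10903 in SoNar-low and a log2 difference of -0.63. Hadha, the subunit with the hydratase and dehydrogenase activities, had 280 in SoNar-high and 198 in SoNar-low and a log2 difference of 0.35. The partners of this enzyme thus lay on opposite sides of the median gene, 0.98 apart on the log2 scale. With array median scaling both were negative, at -0.26 for Hadha and -1.24 for Hadhb. The distance between them was 0.60 in the authors' deposited value table and 0.61 with each gene set against genes of its own signal decile. Their starts lie 273 bases apart, and their promoter windows share the bases printed in capitals above. Each rests on 1 probe with 1 spot. Echs1, the short-chain enoyl-CoA hydratase, had 2765 in SoNar-high and 3736 in SoNar-low, a log2 difference of -0.58. Hadh, the 3-hydroxyacyl-CoA dehydrogenase that makes NADH in the matrix, had 5438 in SoNar-high and 5049 in SoNar-low, a log2 difference of -0.04. Acaa2, a mitochondrial thiolase, is measured by a probe printed several times. Over its 10 spots the signal was 4567 ± 165 (SD) in SoNar-high and 6609 ± 483 (SD) in SoNar-low, and the log2 difference was -0.68 ± 0.08. That difference is larger than the spread between its spots on these arrays, and it does not speak to the spread between samples.

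Unsaturated chains need an isomerase and a reductase. Decr1, the mitochondrial 2,4-dienoyl-CoA reductase, had the lowest value of all members. Its detected probe had 958 in SoNar-high and 1563 in SoNar-low, a log2 difference of -0.85 (1.80-fold lower in SoNar-high), and 4.23% of all genes lay below it. A second Decr1 probe had 25.2 in SoNar-high and 24.6 in SoNar-low and was detected in SoNar-high alone, so it gives no measured difference. Eci1, the mitochondrial enoyl-CoA isomerase, listed under its older name Dci in some annotations, had 1710 in SoNar-high and 1865 in SoNar-low and a log2 difference of -0.27.

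The 2 genes of the electron transfer flavoprotein had values below that of the median gene under each of 7 scalings, and Etfdh did not. Etfa and Etfb encode the subunits of the electron transfer flavoprotein, which takes electrons from the acyl-CoA dehydrogenases. The probes of Etfa had 5218 and 620 in SoNar-high against 6930 and 774 in SoNar-low, log2 differences of -0.55 and -0.47. Etfb had 8490 in SoNar-high and 11080 in SoNar-low, a log2 difference of -0.53. The subunits differed from each other by 0.02. Set against the genes of its own signal decile, Etfa stood at -0.18, Etfb at -0.20 and Etfdh at 0.05. Etfdh, the oxidoreductase that passes the electrons to ubiquinone, had 1507 in SoNar-high and 1578 in SoNar-low, a log2 difference of -0.21. Etfdh lay 0.05 below the median gene here, and 0.16, 0.13 and 0.16 above it with quantile normalization, cyclic loess and the authors' table.

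Of the 8 peroxisomal members 6 were measured on both arrays, between -0.79 and 0.26. Acaa1a, a peroxisomal thiolase, was the lowest. It had a signal of 2011 in SoNar-high and 3154 in SoNar-low, a log2 difference of -0.79 (1.73-fold lower in SoNar-high). Abcd3, the transporter that brings branched-chain acyl-CoA and bile acid precursors into peroxisomes, had 1152 in SoNar-high and 1386 in SoNar-low, a log2 difference of -0.41. Hsd17b4, the D-bifunctional protein of the peroxisomal cycle, had 1836 in SoNar-high and 1937 in SoNar-low, a log2 difference of -0.22. Eci2, an isomerase found in peroxisomes and mitochondria, had 1677 in SoNar-high and 1947 in SoNar-low, a log2 difference of -0.36. These 4 genes had log2 differences below 0, by less than 2-fold, and 36.8% of all measured genes had one above 0. Hsd17b4 and Eci2 turned to 0.18 and 0.04 above the median gene in the authors' table.

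The remaining peroxisomal members had several probes or could not be measured on both arrays. Acox3, an acyl-CoA oxidase of branched chains, has probes that disagree most among the 5 members with several measured probes. These had 252 and 380 in SoNar-high against 322 and 199 in SoNar-low, log2 differences of -0.50 and 0.79, and the mean of 0.15 is therefore weak evidence for either sign. Acot8, a peroxisomal acyl-CoA thioesterase, had 108 and 196 in SoNar-high against 89.1 and 136 in SoNar-low, log2 differences of 0.13 and 0.38. Decr2, the peroxisomal dienoyl-CoA reductase, had a signal of 83.6 in SoNar-high and of 13.7, not well above background, in SoNar-low. In the main scaling it was at least 1.63-fold higher in SoNar-high, a log2 difference of 0.70. This bound sets its normalized level against the lowest level detected on the SoNar-low array. Array median scaling lowers every log2 difference by 0.61, and the bound with them. Detection in SoNar-high alone was found for 26.5% of all genes with a named probe. Where detection in either sample was enough, Decr2 counted as at least 2-fold higher beside Acad10 and Ppara, as did 20.0% of all genes. With no filter it did so beside Acad10 alone, as did 13.5% of all genes. Ehhadh, the L-bifunctional protein and a PPARalpha target in liver, was undetected in both samples, with 4.12 in SoNar-high and 9.43 in SoNar-low.

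The mitochondrial and the peroxisomal enzymes had nearly the same median difference. It was -0.27 over the 19 mitochondrial genes and -0.29 over the 6 peroxisomal genes measured, a gap of 0.02. The values within each compartment spread far more widely, between -0.85 and 1.73 for mitochondrial and between -0.79 and 0.26 for peroxisomal genes. With Eci2 counted as mitochondrial the gap was -0.09. No comparison of the compartments could be tested with 1 array per group.

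Ppara, the regulator, had 1 of 3 probes well above background on both arrays. That probe had 502 in SoNar-high and 178 in SoNar-low, a log2 difference of 1.35 or 2.56-fold higher in SoNar-high, and 97.6% of all measured genes had a lower value. A second probe had 25.4 in SoNar-high and 10.4 in SoNar-low and was detected in SoNar-high alone, at a level below the lowest one detected on the SoNar-low array. The third, with 4.45 in SoNar-high and 11.4 in SoNar-low, was not well above background on either. The higher value of Ppara thus rests on 1 spot of 1 probe. It was below 2-fold with array median scaling (0.74) and with no filter on dim probes (0.33).

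The log2 difference followed the signal of the probe over all genes, and the members followed the same trend. Signal depends on the probe as well as on the transcript, so it is used here only to group genes. In the 3 deciles of genes with the highest mean level, 3155 genes had a median log2 difference of -0.34, and the 13 members there had one of -0.51. In the other 7 deciles, 7362 genes had a median of -0.08, and 17 members had one of 0.06. Set against the median of the genes in its own decile, the median member differed by 0.03. Acad10 stood 1.96 above its decile and Ppara 1.42 above, while Decr1 stood at -0.58 and Acaa1a at -0.46. At least 2-fold higher were 4.38% of the genes in the decile that holds Acad10 and 6.46% of those in the decile that holds Ppara.

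**Figure D3:**
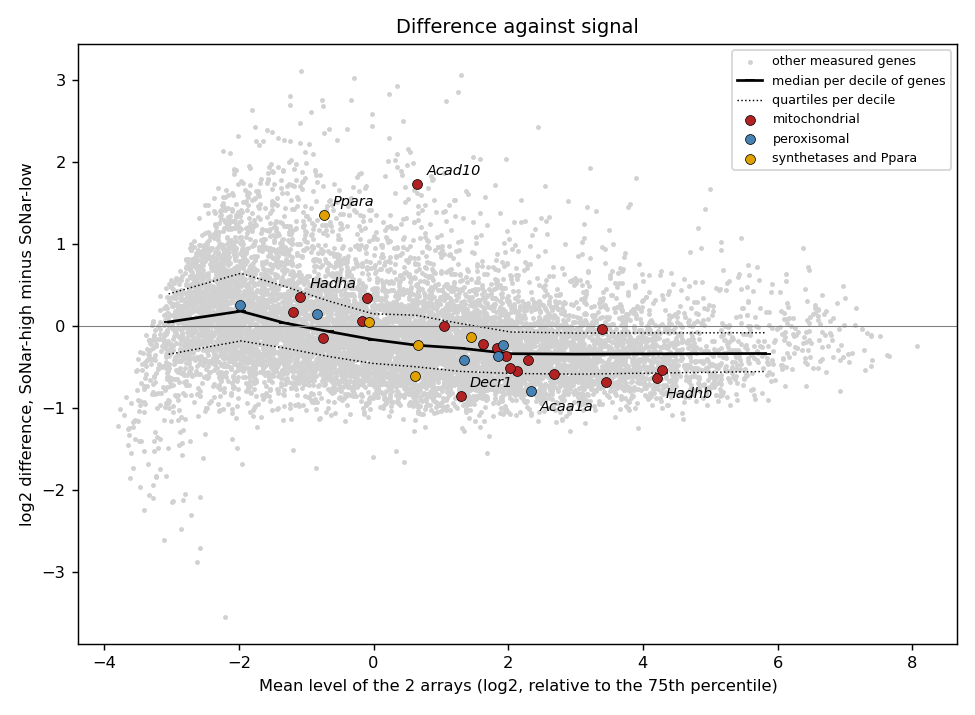
The log2 difference (SoNar-high minus SoNar-low) against the mean level of both arrays (log2, relative to the 75th percentile) for all 10517 measured genes in grey and the 30 members in colour; the line is the median and the dotted lines the quartiles in each decile of genes. The median is 0.05 in the dimmest decile and 0.18 in the next, falls from there and is nearly level, between -0.34 and -0.33, over the 3 brightest, most members lie near it, and Acad10 and Ppara lie far above it.

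The sign of many members depends on where the arrays are set level. Scaling to the array median lowered every log2 difference by 0.61, and using the 75th percentile of jointly detected spots added 0.21. Relative to the median of all genes, 10 members were lower and 12 higher under each of 7 scalings, of which 3 shift all genes alike, and 8 changed side. The lower ones were Acsl4, Acadl, Hadhb, Echs1, Acaa2, Decr1, Etfa, Etfb, Abcd3 and Acaa1a. The higher ones were Acad10, Ppara, Acads, Hadha, Cpt1a, Acox3, Acot8, Slc25a20, Acsl3, Acsl5, Acad9 and Hadh. Those that changed side were Acsl1, Cpt2, Acadvl, Acadm, Eci1, Etfdh, Hsd17b4 and Eci2. In the main scaling 5258 of all measured genes lay above the median and 5258 below it. How many of all genes keep their side is not given here, so these counts do not set the members apart.

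**Figure D4:**
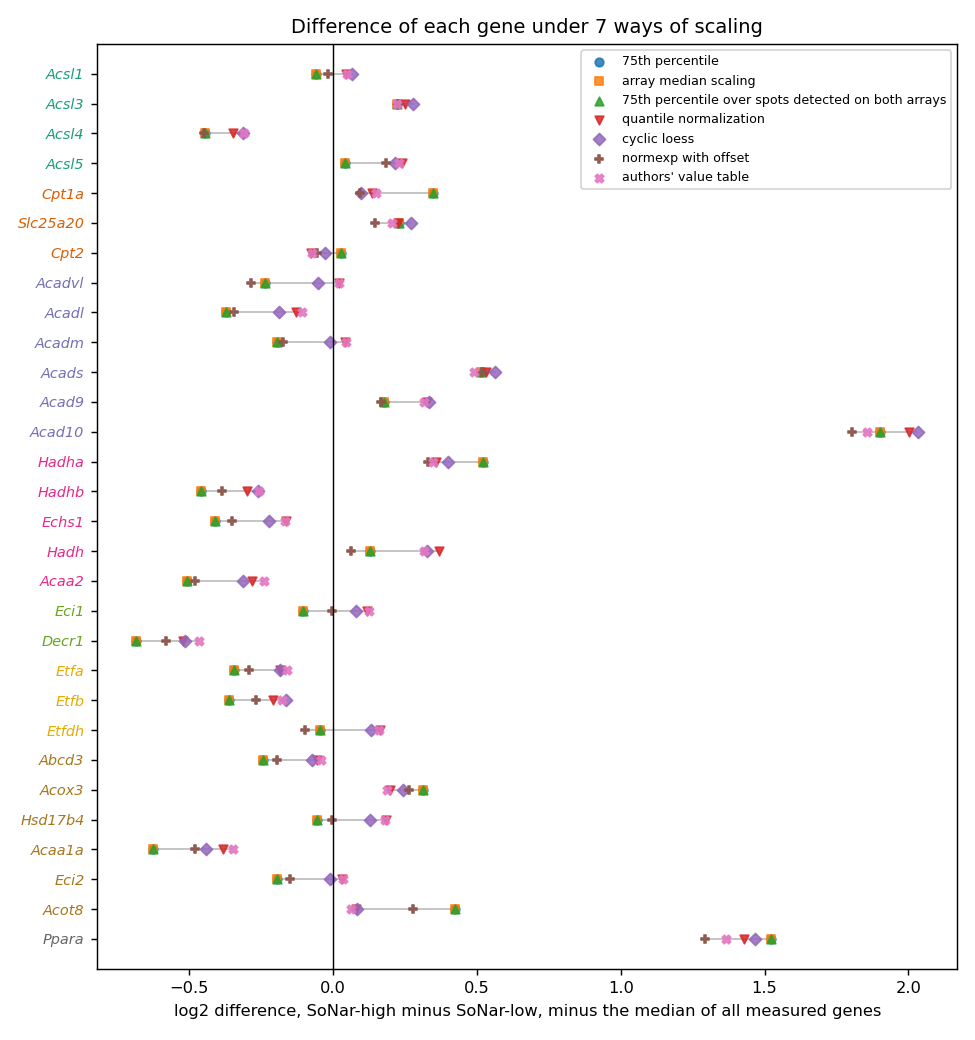
SoNar-high minus SoNar-low on the log2 scale for the 30 measured members, minus the median of all measured genes, under 7 scalings with 1 symbol each. Acad10 stays between 1.80 and 2.03 and Ppara between 1.29 and 1.52, Decr1 stays between -0.68 and -0.47, and 8 members fall on both sides of 0.

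In the authors' deposited value table the picture was close to this. Acad10 had a log2 difference of 1.64 there, Ppara one of 1.15, and no other member detected in both samples was at least 2-fold apart. The median of the members lay 0.05 above that of all genes in that table, and 0.06 below it in the main scaling.

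Promoter windows of 28 of the 32 members were in the RefSeq table, 30 windows in all. Each motif was searched on both strands among the 32851 windows of the same length. The NRF1 motif (GCGCA, any base, then GCGC) was in the windows of Abcd3, Acad10, Etfb, Etfdh and Ppara, 5 of 30 member windows, against 4.60% of all windows. In the window of Acad10 its matches were GCGCACGCGC, starting at position -44 from the gene start, and GCGCATGCGC at -8. In that of Ppara the match was GCGCATGCGC at -31. The matches in Abcd3, Etfb and Etfdh are not printed here. The half-site TGACG of the cAMP response element was in 9 member windows, those of Acad10 and Ppara among them, against 20.8% of all windows. The nuclear receptor half-site AGGTCA was in 4, against 16.3% of all windows. The direct repeat of that half-site with 1 base between the copies, which PPARalpha binds with its partner RXR, was in 0 member windows, against 0.0396% of all windows. The E-box CACGTG was in 0 member windows, against 7.15%, and the extended half-site TNAAGGTCA, which overlaps AGGTCA, in 0, against 1.28%. The genes with an NRF1 match had log2 differences on both sides of 0. Etfb was at -0.53, Abcd3 at -0.41 and Etfdh at -0.21, while Ppara was at 1.35 and Acad10 at 1.73. Such matches describe letters in a window and are no evidence of binding.

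Beyond the 32 members, 53 other genes of fatty acid metabolism had a probe, 35 of them measured on both arrays, 12 detected in SoNar-high alone and 6 in neither sample. The median log2 difference of the 35 was -0.28, with 1 gene higher and 1 lower by 2-fold or more, against 4.87% and 1.68% of all measured genes. The higher gene was Cat, the catalase that clears the hydrogen peroxide of acyl-CoA oxidases, at 1.25, with probes at 0.55 and 1.96. The lower gene was Ppargc1a, a coactivator of PPARalpha, with a signal of 25.3 in SoNar-high and 66.7 in SoNar-low and a log2 difference of -1.54. The SoNar-high signal of Ppargc1a is below the lowest signal detected on the SoNar-low array, 46.4. Its relative Ppargc1b was at 0.78. Among 9 further genes of mitochondrial import and oxidation the range was from -0.88 (Acad11) to 0.24 (Acot2). Among 15 of peroxisomes the lowest was Phyh, the phytanoyl-CoA hydroxylase, at -0.88. Among 5 genes of fatty acid uptake, lipid release and ketone bodies the highest was the transporter gene Slc27a1 at 0.82, and the lowest was Fabp5, a fatty acid binding protein, at -0.58. Of the other PPAR genes Ppard had a log2 difference of 0.00. The probe of Pparg was detected in SoNar-high alone, with a signal of 117 there and 38.2 in SoNar-low, as were 26.5% of all genes with a named probe.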

How the data were processed

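Expression was measured in total RNA of sorted B-ALL cells, 1 array for SoNar-high and 1 for SoNar-low, with the group taken from each sample's source name. In the scanner files the authors deposited 1 intensity per spot, background-subtracted and detrended within each array by Agilent Feature Extraction 11.0.1.1, per the file headers. The submitters' processing notes give 9.1 as the version. The authors' deposited value table holds log2 values whose columns share their quantiles, and how it was made is not given in the sources used here. The headers give mm9 and the gene table GRCm38.p6, so coordinates are printed only for the RefSeq promoters.

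Levels were the log2 processed signal relative to the 75th percentile of gene spots. Flagged outlier spots (685) were left out and spots of a probe averaged. Of 39429 probes 39085 kept a spot and 27115 of these were named. A gene was the mean over its probes well above background on both arrays, and 2-fold (a log2 difference of 1) was the limit for counts. The members and lists were chosen with earlier results of these data known. All members are named, and other genes where at least 2-fold apart or at the end of their group, with Ppard and Pparg added after their values were seen. No p-value was computed. The alternatives were other scalings, normexp (offset 50, on the median spot signal), other detection filters, a gene's brightest probe, outlier spots kept and the authors' table. The scripts were tested on simulated data. Python 3.11.15, numpy 2.4.6, pandas 2.3.3, R 4.3.3 and limma 3.58.1 were used.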

Additional observations from a re-analysis of the deposited data

How the results depend on the processing

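No paired analysis was possible because a group is a single array, which also cannot be left out. Array median scaling, which lowers all genes alike, gave 1 member at least 2-fold higher (Acad10) and 11 at least 2-fold lower, against 2 and 0, where 1.32% of all genes were higher and 31.4% lower. With no filter on dim probes 1 member, Ehhadh, was at least 2-fold lower, from a probe not well above background on either array. The median of the members minus that of all genes, -0.06, was -0.23 with no filter and -0.37 where detection in either sample was enough, and the median of all genes shifted by 0.18 and by 0.31 there. Under the other planned settings the counts of members stayed within 1.5 times and this gap between -0.10 and 0.07, with both signs. The gap between mitochondrial and peroxisomal medians lay between -0.09 and 0.12 under all settings, with both signs. Centring on deciles of level was added after seeing the data. Detection in SoNar-high alone limits Decr2 and 1 probe each of Ppara, Cpt2 and Decr1, and Ehhadh and another Ppara probe were undetected in both samples.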
